A study of Mus musculus with 49 samples.

Results

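Among 49 RNA sequencing libraries labelled as mouse frontal cortex, 12 libraries with high levels of olfactory bulb marker genes were set against 12 libraries with low levels. The markers were Eomes, Tbx21 and Omp. For each library the mean of the log2 levels of the 3 genes was taken, and the mean of its study group was subtracted to give a marker score. The 12 highest scores form the high libraries and the 12 lowest the low libraries, 24 of 49 in all, and 25 libraries lie in neither set. The sets were picked by measured values and are not groups of the study. The values of the 3 marker genes are therefore given as a description, and between the sets only other genes were tested. The markers themselves were tested between study groups alone, a difference the score removes.

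All mice were on a high fat diet. The CreTM mice carry a conditional human amylin transgene and received tamoxifen, which is used to switch such a transgene on, and the CreVE mice carry it too and received vehicle. Both were on the diet for 4 months, and the labels place collection 2 months after the injections. The 4MHFA mice, labelled AKO for amylin knockout, and the WT mice of group 4MHFW were on the diet for 4 months, and the WT mice of group 2MHF for 2 months. There were 10 libraries of each of these groups except 2MHF, which had 9. The labels name no Cre driver, sex, strain, age or batch, and nothing states that libraries of a group came from separate animals. The p-values therefore measure the spread between these libraries, which may in part be technical.

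Library depth was 29.2 M to 75.6 M recovered reads per library. Iapp, the mouse amylin gene, had 0 reads in CreTM, 1 read in CreVE, 596 reads over all 10 libraries of 4MHFA, 0 reads in 4MHFW and 0 reads in 2MHF, which goes against the knockout label of 4MHFA unless these reads fall outside the deleted part, which the labels do not give. The high libraries were 3 of CreTM (replicates 9, 16 and 27), 3 of CreVE (1, 3 and 40), 3 of 4MHFA (14, 15 and 19), 2 of 4MHFW (12 and 13) and 1 of 2MHF (40). The low libraries were 2 of CreTM (33 and 44), 2 of CreVE (5 and 41), 3 of 4MHFA (7, 12 and 16), 3 of 4MHFW (11, 22 and 25) and 2 of 2MHF (33 and 34). Study group was a term in the fits of high against low libraries, except where a value is given without it.

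The olfactory bulb lies in front of the frontal cortex and receives the axons of olfactory sensory neurons, whose cell bodies sit in the nasal mucosa. In the glomeruli of the bulb these axons contact mitral and tufted cells, the glutamatergic output neurons, and periglomerular interneurons, some of them dopaminergic. The bulb also receives new interneurons throughout life as neuroblasts that migrate along the rostral migratory stream. Eomes and Tbx21 encode T-box transcription factors of mitral and tufted cells. Omp encodes olfactory marker protein of mature sensory neurons.

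Eomes had a lowest, median and highest level of 8.84, 10.53 and 12.39 in the high libraries, against 0, 3.74 and 7.30 in the low libraries, as log2(normalised reads + 1). Tbx21 had 6.66, 8.61 and 10.50 in the high libraries, against 1.77, 3.62 and 4.85 in the low libraries. The high and low libraries did not overlap in either T-box gene. Eomes rested on 415 to 3996 reads in the high libraries, against 0 to 170 reads in the low libraries. Omp had 8.37, 11.13 and 12.73 in the high libraries, against 3.20, 5.04 and 9.49 in the low libraries. For Omp the sets overlapped, because the low library 4MHFA replicate 16 reached 9.49 while its Eomes level was 4.60 and its Tbx21 level 2.02. The score of the last high library, CreVE replicate 40, was 1.73, and that of the next library, 2MHF replicate 38, was 1.71. At the other end, the score of 4MHFW replicate 25 was -1.76 in the low set and that of CreVE replicate 39 was -1.62 outside it. Scores thus formed a range without a gap at either edge.

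**Figure D1:**
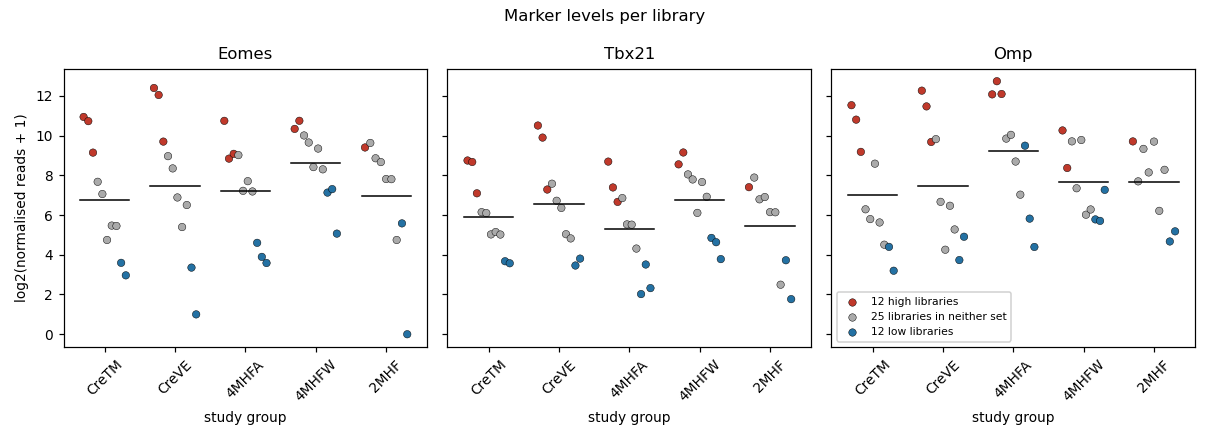
Level of Eomes, Tbx21 and Omp, as log2(normalised reads + 1), in each of the 49 libraries by study group, with high libraries in red, libraries in neither set in grey and low libraries in blue. Each horizontal line is the mean of a group. Every group holds libraries of both sets, and Eomes spans 0 to 12.39.

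In bulk RNA a lower level cannot tell fewer cells of a type apart from less RNA per cell. Of 15405 genes tested with limma, 2021 were higher in the high libraries (13.1%) and 2101 were lower (13.6%), 26.8% in both directions, at a Benjamini-Hochberg adjusted p of 0.05. The sizes differed by direction. The rises included 301 genes of at least 1 log2 unit, 105 of at least 2 and 15 of at least 4, while 11 falls reached 1 log2 unit and 0 reached 2. The median difference was 0.35 among the genes that rose, -0.20 among those that fell and 0.0017 over all genes tested. In 105 genes (0.682%) every high library lay above every low library, and in 6 genes (0.0389%) every high library lay below. Without CreVE replicate 5, a low library, 1113 genes were lower.

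**Figure D2:**
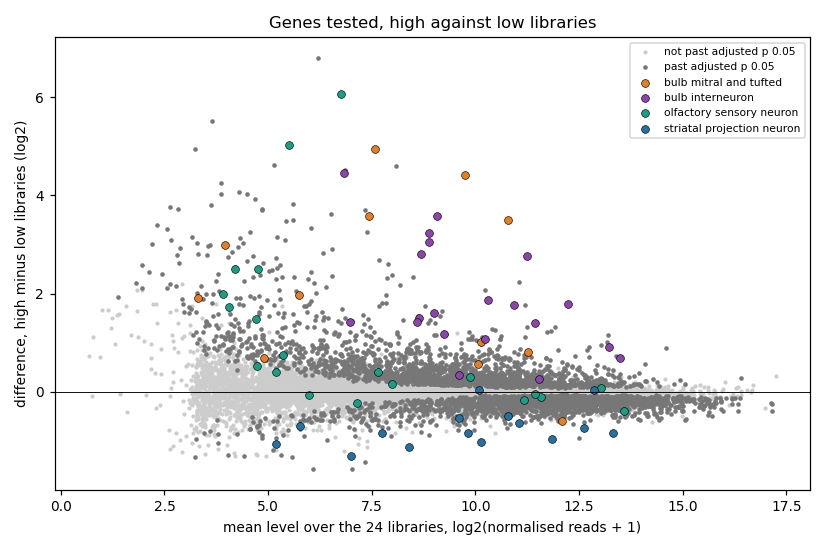
Difference between the high and low libraries (log2, vertical axis) against the mean level over the 24 libraries (log2(normalised reads + 1), horizontal axis) for each gene tested, with genes past adjusted p 0.05 in dark grey and 4 marker lists in colour. Differences reach 6.80 upward and -1.58 downward, and the bulb lists lie above 0 apart from Tbr1.

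Genes of mitral and tufted cells other than the T-box pair rose with the score. Of 14 listed genes, 12 were tested and 9 rose (75%, against 13.1% of all genes tested). The median difference was 1.95, and 1 gene fell (8.3%, against 13.6%). In 5 genes every high library lay above every low library, against 0.682% of all genes tested. Doc2g, a C2 domain gene used as a mitral and tufted cell marker, had 10.65, 12.07 and 13.96 in the high libraries, against 6.58, 7.38 and 9.13 in the low libraries (lowest, median and highest). The sets did not overlap, and the difference was 4.41 (SE 0.34, adjusted p = 1.6e-07). Shisa3, a Wnt and FGF signalling modulator, had 8.68, 10.28 and 12.30 in the high libraries, against 3.73, 4.87 and 7.62 in the low libraries. The difference of Shisa3 was 4.94 (SE 0.41, adjusted p = 2.1e-07), again without overlap. Cdhr1, a protocadherin of photoreceptors and mitral cells, had 11.46, 12.69 and 14.48 in the high libraries, against 7.98, 9.0 and 10.09 in the low libraries. Its difference was 3.50 (SE 0.33, adjusted p = 8.9e-07).

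Further members of the mitral and tufted list differed in size. Nmb, which encodes the neuropeptide neuromedin B, rose by 3.58 (SE 0.34, adjusted p = 1.1e-06). The transcription factor genes Barhl2 and Ebf3 rose by 2.98 and 1.97. Slc17a6, the vesicular glutamate transporter VGLUT2, differed by 0.56 (SE 0.23), and with an adjusted p of 0.073 it did not pass. Tbr1 is shared by mitral cells and deep-layer cortical neurons and was the member that fell. It had 10.70, 12.01 and 12.38 in the high libraries, against 12.06, 12.43 and 12.70 in the low libraries, with overlap. Its difference was -0.60 (SE 0.18, adjusted p = 0.021), and without CreVE replicate 5 the adjusted p was 0.053.

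Bulb interneuron genes rose in 19 of 20 cases (95%, against 13.1% of all genes tested), with a median difference of 1.55. In 10 of the 20 every high library lay above every low library, against 0.682% of all genes tested. Scgn encodes secretagogin, a calcium-binding protein of bulb interneurons. It had 7.76, 9.09 and 11.10 in the high libraries, against 2.03, 4.99 and 6.72 in the low libraries, and its difference was 4.45 (SE 0.48, adjusted p = 5.6e-06). Th encodes tyrosine hydroxylase, the rate-limiting enzyme of dopamine synthesis, which periglomerular neurons use. Th had 9.22, 10.81 and 12.96 in the high libraries, against 5.68, 7.24 and 8.47 in the low libraries. The sets did not overlap, and the difference was 3.59 (SE 0.42, adjusted p = 1.6e-05). Slc6a3, the dopamine transporter gene, is outside the naming rule and was chosen after its values were seen; it differed by 3.16 (SE 0.56, adjusted p = 0.00088).

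The transcription factor gene Sp8, needed for bulb interneurons, rose by 3.24 (SE 0.32). Calb2, which encodes calretinin of granule and periglomerular cells, had 11.64, 12.64 and 14.44 in the high libraries, against 9.01, 9.86 and 10.64 in the low libraries. Its difference was 2.77 (SE 0.30, adjusted p = 5.6e-06). Shisa8, an AMPA receptor auxiliary subunit gene, rose by 3.05 (SE 0.35), and Trh, the thyrotropin-releasing hormone gene, rose by 2.80 (SE 0.46). Smaller rises were those of Meis2 (0.68), a factor that striatal neurons express too, and Etv1 (0.26), a factor of cortical layer 5 neurons as well. Tpbg, a granule cell surface protein gene, differed by 0.33 (SE 0.14), and with an adjusted p of 0.083 it was the member that did not pass.

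The Th promoter is shown because Th had the smallest p of the genes tested in the 25 libraries outside both sets. RefSeq sequence of GRCm38.p6 was read 250 bases before to 50 bases after the gene start, in the direction of transcription, at chr7:142899946-142900245 on the minus strand. The capitals mark a cAMP response element, TGACGTCA, whose first base lies 45 bases before the start.
Th: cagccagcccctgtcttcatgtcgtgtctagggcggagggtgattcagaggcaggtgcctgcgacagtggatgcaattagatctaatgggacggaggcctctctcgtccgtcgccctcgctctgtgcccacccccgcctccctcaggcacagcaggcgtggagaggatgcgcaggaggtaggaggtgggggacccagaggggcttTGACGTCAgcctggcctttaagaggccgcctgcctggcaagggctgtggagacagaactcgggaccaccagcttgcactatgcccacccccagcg
The same letters, which read alike on both strands, were in 3 of the 40 promoters found for 49 genes looked up (the 3 markers, the 15 largest rises and the members of the bulb neuron and sensory neuron lists that rose): those of Foxd3, Pax6 and Th. They were in 1.79% of all 32851 mouse promoters of this length. A T-box motif, AGGTGTGA, searched on both strands, was in 0 of the 40 and in 1.28% of all promoters. A match is a run of letters in a window and not a measured binding site.

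Neuroblast genes rose in 10 of 12 cases (83.3%, against 13.1% of all genes tested), with a median difference of 0.85. Dcx, which encodes the microtubule-binding protein doublecortin of migrating neuroblasts, had 10.44, 10.95 and 12.38 in the high libraries, against 9.43, 9.78 and 9.99 in the low libraries. The sets did not overlap, and the difference was 1.29 (SE 0.17, adjusted p = 6e-05). Dlx1 and Dlx2, homeobox genes of the GABAergic lineage, rose by 1.76 and 1.51. Dlx1 overlaps its antisense gene Dlx1as, which rose by 0.35, and no source used here says whether the counting used strand. Sox4 rose by 1.14, while Stmn1, a tubulin regulator expressed in many neurons, fell by 0.22. Of 11 cell cycle genes tested, 0 passed in limma-trend and 0 in limma-voom, and 1 had a raw p under 0.05. Top2a, a topoisomerase of dividing cells, had 4.62, 5.98 and 7.34 in the high libraries, against 4.17, 5.93 and 6.83 in the low libraries, and its difference of 0.39 (SE 0.22) did not pass.

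Olfactory sensory neuron genes passed the test less uniformly than the bulb interneuron list, a contrast that was not itself tested. Of 20 listed genes beside Omp, 8 rose (40%, against 13.1% of all genes tested) and 1 fell (5%, against 13.6%). The other 11 did not pass, and the median difference was 0.40. S100a5, a calcium-binding protein gene of sensory neurons, had 8.38, 9.89 and 11.48 in the high libraries, against 1.25, 3.59 and 7.58 in the low libraries. The sets did not overlap, and the difference was 6.07 (SE 0.53, adjusted p = 4.3e-07). Stoml3, a stomatin-like protein gene of olfactory cilia, had 6.07, 7.88 and 10.83 in the high libraries, against 0, 2.98 and 7.33 in the low libraries. Its difference was 5.03 (SE 0.58, adjusted p = 1.4e-05), with overlap through 4MHFA replicate 16, which was the highest low library.

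Other genes of the sensory neuron list showed wide ranges. Cnga2, the olfactory cyclic nucleotide-gated channel gene, had 2.94, 5.12 and 9.77 in the high libraries, against 1.34, 2.83 and 6.57 in the low libraries, and rose by 2.50 (SE 0.53, adjusted p = 0.0032). Gfy, the gene of the olfactory receptor-associated protein goofy, had 3.37, 5.66 and 10.63 in the high libraries, against 1.40, 3.28 and 7.65 in the low libraries. It rose by 2.51 (SE 0.58, adjusted p = 0.0056). The highest values of both genes in the high set came from 4MHFA replicate 14, in which Gfy was 10.63 and Omp 12.73. Gnal, the stimulatory G protein subunit that sensory neurons share with striatal neurons, fell by 0.39 (SE 0.14, adjusted p = 0.039). Adcy3, the adenylyl cyclase of olfactory cilia, which the brain also expresses, differed by -0.12 (SE 0.06) and did not pass. With a score from Eomes and Tbx21 alone, 3 of the 20 genes rose and 2 fell, where 2441 of all genes tested rose and 2736 fell. The share of the list that rose was thus near that of all genes. The differences of Cnga2 and Gfy were then 1.64 and 1.58, with limma adjusted p-values of 0.057 and 0.065.

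The Gfy promoter is shown because it alone among the 40 promoters held the binding motif of early B cell factors (EBF), known from olfactory neuron genes: TCCC, any pair of bases, then GGGA. It was read from RefSeq GRCm38.p6 at chr7:45179548-45179847 on the minus strand in the direction of transcription. The capitals mark the motif, whose first base lies 42 bases before the gene start.
Gfy: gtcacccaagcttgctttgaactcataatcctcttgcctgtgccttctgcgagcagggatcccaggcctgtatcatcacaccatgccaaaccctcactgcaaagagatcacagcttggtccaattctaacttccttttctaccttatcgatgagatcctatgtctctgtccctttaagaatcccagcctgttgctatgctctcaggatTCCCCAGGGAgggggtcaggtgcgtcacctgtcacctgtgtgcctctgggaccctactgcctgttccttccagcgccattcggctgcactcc
The motif reads alike on both strands and was in 0.904% of all 32851 promoters.

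Genes of the supporting cells and glands of the nasal mucosa set a few libraries apart from the others. Cyp2g1, a cytochrome P450 of olfactory supporting cells and Bowman's glands, had 0, 4.60 and 12.30 in the high libraries, against 0, 1.65 and 8.72 in the low libraries. The high libraries 4MHFA replicates 14 and 19 were at 12.30 and 11.34. The low library 4MHFA replicate 16 was at 8.72, and 4 libraries in neither set lay between 7.11 and 8.98. In CreVE replicate 3, which had the highest Eomes level, Cyp2g1 was at 0. Cyp2g1 differed by 2.97 between the sets (SE 0.97, adjusted p = 0.031), by 2.63 with an adjusted p of 0.064 without 2MHF replicate 40, and by 1.96 with an adjusted p of 0.099 without 4MHFA replicates 14 and 19. With a score from Eomes and Tbx21 alone it differed by 1.54 (adjusted p = 0.278).

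Of the 20 mucosa genes listed, 12 were tested, 5 rose (41.7%, against 13.1% of all genes tested) and the median difference was 1.68. Sult1c1, a sulfotransferase gene, rose by 3.01 (SE 0.79, adjusted p = 0.010), with medians of 3.42 in the high libraries and 0 in the low libraries. Without the libraries with a Cyp2g1 level over 7, which are 7 of 49, 2 of 7 genes tested rose. The filter on low values is a mean, so the other genes of the 12 were tested only through reads in those libraries. The count of 5, the median of 1.68 and the p-values of this list are therefore a description. With a score from Eomes and Tbx21 alone, 0 of 12 passed in limma-trend, and without the group term 1 of 12 did. With a score from Omp alone 8 of 12 rose, with a median of 2.47, and limma-voom gave 7 of 12 with a median of 3.61. The summed level of the list, as log2, was 6.42, 8.20 and 15.22 in the high libraries, against 6.99, 7.54 and 11.09 in the low libraries.

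The relation of the markers to each other varied between libraries, which is a description, since their mean chose the sets. The difference of Omp from Eomes had an SD of 1.63 in the high libraries, 1.90 in the libraries of neither set and 2.31 in the low libraries. For Tbx21 minus Eomes the SD was 0.29 in the high libraries, 0.74 in those of neither set and 1.74 in the low libraries, where Eomes reached 0. For Doc2g minus Eomes it was 0.29 in the high libraries, 0.48 in those of neither set and 1.54 in the low libraries. In the high libraries Omp minus Eomes ranged from -2.37 in 4MHFW replicate 13 to 3.90 in 4MHFA replicate 14. The offsets themselves depend on transcript length and are not compared. Omp lies within Capn5 on the same strand in GENCODE M21; Capn5 differed by -0.30 (SE 0.10, adjusted p = 0.037), in the direction opposite to the marker.

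Odorant receptor reads were most varied in the library with the highest mucosa level of each set. The table holds 1125 Olfr genes, of which 811 had a read in some library, 7 passed the filter on low values and 1, Olfr287, rose (0.40, SE 0.12, adjusted p = 0.018). Over all genes tested 13.1% rose, so 1 of 7 is near that share. Olfr genes with at least 1 read numbered 35, 85.5 and 621 in the high libraries, against 19, 26.5 and 189 in the low libraries (lowest, median and highest). The highest count of each set was that of the library with its highest Cyp2g1 level, 4MHFA replicate 14 in the high set and 4MHFA replicate 16 in the low set. Summed Olfr levels were 393, 546 and 3052 normalised reads in the high libraries, against 301, 379 and 607 in the low libraries.

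**Figure D3:**
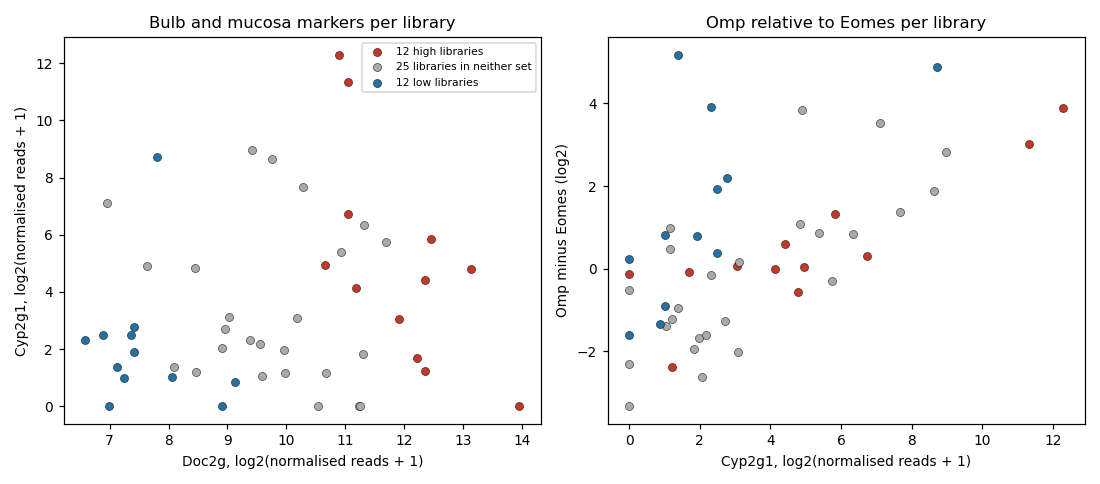
Left, level of the mucosa gene Cyp2g1 against that of the mitral and tufted cell gene Doc2g, and right, Omp minus Eomes against Cyp2g1, in log2 units, for 49 libraries, with high libraries in red, libraries in neither set in grey and low libraries in blue. High Doc2g levels occur with Cyp2g1 levels from 0 to 12.30, and the 7 libraries with Cyp2g1 over 7 all lie above 1 in Omp minus Eomes.

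Olfactory ensheathing glia wrap the sensory axons in the outer layer of the bulb. Of 12 genes listed for them 7 rose (58.3%, against 13.1% of all genes tested), with a median difference of 0.61. Fabp7, a fatty acid binding protein of these glia and of radial glia, had 11.08, 12.04 and 13.88 in the high libraries, against 9.32, 10.07 and 10.28 in the low libraries. The sets did not overlap, and the difference was 2.24 (SE 0.29, adjusted p = 4e-05). Prss56, a serine protease gene, rose by 2.06 (SE 0.32), and Frzb, a secreted Wnt inhibitor gene, rose by 0.69 (SE 0.14). Gfap, the intermediate filament gene of astrocytes and ensheathing glia, rose by 0.91 (SE 0.14). Sox10, which oligodendrocytes share, differed by 0.09 (SE 0.08) and did not pass.

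Astrocyte genes moved by smaller amounts, and 6 of 14 rose (42.9%, against 13.1% of all genes tested) and 1 fell (7.1%, against 13.6%). The largest of them after Gfap was the water channel gene Aqp4, with 12.16, 12.60 and 12.86 in the high libraries, against 11.66, 12.13 and 12.44 in the low libraries. Aqp4 rose by 0.51 (SE 0.07, adjusted p = 0.00014) and Slc1a2, the glutamate transporter GLT-1 gene, fell by 0.24. Among 14 leptomeningeal genes 4 rose (28.6%, against 13.1% of all genes tested), with a median of 0.35. Islr, an immunoglobulin and leucine-rich repeat gene, rose by 1.11 (SE 0.16), and Dcn, the proteoglycan decorin gene, rose by 0.85 (SE 0.18). Islr overlaps Islr2, which fell by 0.42.

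Several of the largest rises belong to no list. Ms4a15, a membrane protein gene of the MS4A family, had the largest difference. It had 8.22, 9.79 and 11.41 in the high libraries, against 0, 2.88 and 6.43 in the low libraries, without overlap, and differed by 6.80 (SE 0.53, adjusted p = 1.6e-07). Foxd3, a forkhead transcription factor gene known from the neural crest, had 4.82, 6.25 and 7.84 in the high libraries, against 0, 0.50 and 2.99 in the low libraries. Foxd3 rose by 5.51 (SE 0.41, adjusted p = 8e-08). All its values in the low libraries lay under the filter of 10 normalised reads, so Foxd3 was tested only through its level in the high libraries. Its p-value is therefore a description. Frmd7, a FERM domain gene mutated in human congenital nystagmus, had 9.15, 10.39 and 12.31 in the high libraries, against 3.57, 5.56 and 8.31 in the low libraries, and rose by 4.60 (SE 0.44). The sets did not overlap in any of these 3 genes.

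The rest of the 15 largest rises were of different kinds. Hephl1, a copper-containing ferroxidase gene, rose by 4.94 (SE 0.43), and Adamts19, a secreted metalloprotease gene, rose by 4.61 (SE 0.63). By study group Hephl1 averaged 0 to 2.07 in the low libraries, against 4.53 to 6.52 in the high libraries. Hephl1 thus passed the filter on low values mainly through the high libraries. Tfap2c, an AP-2 transcription factor gene, rose by 4.26 (SE 0.38), and Kcnk15, a tandem-pore potassium channel gene, rose by 4.07 (SE 0.56). Gdpd4, a glycerophosphodiester phosphodiesterase domain gene, rose by 4.03 (SE 0.45). In the low libraries the study group means were 0.41 to 2.53 for Tfap2c, 1.66 to 2.92 for Kcnk15 and 1.27 to 2.43 for Gdpd4. In the high libraries they were 5.18 to 6.74, 5.57 to 7.36 and 4.31 to 6.85. Tfap2c, Kcnk15 and Gdpd4 thus also passed the filter on low values mainly through the high libraries. Their differences and SEs, and those of Hephl1, are therefore a description. Chrnb4, a nicotinic acetylcholine receptor subunit gene, rose by 4.02 (SE 0.42). Each of the 15 was higher in the high libraries within all 5 study groups, where 2MHF had 1 high and 2 low libraries. Each also passed, in the same direction, in all 597 values computed for these genes under other settings. The 15 were picked as the largest rises in these libraries, and the other settings refit mostly the same libraries. Both counts are therefore a description. Of the 15, Stoml3 and Chrnb4 were those in which the sets overlapped.

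Aqp1, a water channel gene listed for choroid plexus, was the gene closest to the score. Over 49 libraries the deviations of Aqp1 from its group means had a correlation of 0.968 with the score. It was followed by Doc2g at 0.964, Cdhr1 at 0.958, Tubb6, a beta-tubulin gene, at 0.948 and Ms4a15 at 0.945. The points share their libraries and normalisation, so these are descriptions. Aqp1 had 7.81, 8.88 and 10.94 in the high libraries, against 3.61, 4.32 and 6.12 in the low libraries, and rose by 4.52 (SE 0.36, adjusted p = 1.8e-07). The defining gene of that epithelium differed far less. Ttr, which encodes transthyretin, had 1.21, 5.43 and 9.41 in the high libraries, against 2.09, 5.35 and 6.68 in the low libraries, and its difference of 0.29 (SE 0.69) did not pass. Of the 9 choroid plexus genes tested 2 rose (22.2%, against 13.1% of all genes tested), Aqp1 and Otx2, and Enpp2 fell by 0.26.

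Cortical genes were present at high levels in all 24 libraries. Slc17a7, the vesicular glutamate transporter VGLUT1 gene of cortical excitatory neurons, had 15.23, 16.08 and 16.42 in the high libraries, against 15.99, 16.33 and 16.48 in the low libraries. Its difference of -0.27 (SE 0.11, adjusted p = 0.080) did not pass. Of 20 cortical excitatory genes 5 fell (25%, against 13.6% of all genes tested) and 2 rose (10%, against 13.1%), with a median of -0.27. Tle4, a corepressor gene of layer 6 neurons, fell by 0.24 (SE 0.04, adjusted p = 0.0009), and Otof and Lamp5 of upper layers fell by 0.61 and 0.44. Nxph4 and Syt6, both layer 6 genes, rose by 1.12 and 0.87. With a score from Eomes and Tbx21 alone, 12 of the 20 fell and 3 rose, where 2736 of all genes tested fell and 2441 rose.

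Among 15 cortical interneuron genes 2 fell (13.3%, against 13.6% of all genes tested) and 3 rose (20%, against 13.1%), shares near those of all genes. Lhx6, a transcription factor gene of interneurons from the medial ganglionic eminence, had 7.24, 9.53 and 10.27 in the high libraries, against 9.79, 10.04 and 10.42 in the low libraries, and fell by 0.66 (SE 0.20, adjusted p = 0.019). Sst, the somatostatin gene, fell by 0.47 (SE 0.16), and without CreVE replicate 5 the adjusted p was 0.085. Reln, which encodes the secreted protein reelin and is expressed in mitral cells too, rose by 0.80 (SE 0.15). Adarb2, of interneurons from the caudal ganglionic eminence, rose by 0.60 (SE 0.12), and Nos1, the neuronal nitric oxide synthase gene, rose by 0.28 (SE 0.10).

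Some genes of striatal projection neurons fell in the high libraries. Of 15 tested 5 fell (33.3%, against 13.6% of all genes tested), with a median difference of -0.84. Without the libraries with Cyp2g1 over 7, 3 of the 15 fell, where 2032 of all genes tested fell. In the 25 libraries of neither set 9 of the 15 slopes on the score were positive, and 0 passed in limma-trend in either direction. Drd1, the dopamine receptor gene of direct pathway neurons, had 7.82, 9.96 and 11.17 in the high libraries, against 8.92, 10.81 and 11.79 in the low libraries. The sets overlapped, the difference was -1.02 (SE 0.32, adjusted p = 0.025), and without CreVE replicate 41 the adjusted p was 0.056. Ppp1r1b, the DARPP-32 gene, fell by 0.84, Pde10a, a phosphodiesterase gene, by 0.73 and Rgs9, a regulator of G protein signalling, by 0.64. The call of Ppp1r1b was lost without CreVE replicate 41, with an adjusted p of 0.0521. The summed striatal level, as log2, was 13.81, 14.98 and 16.06 in the high libraries, against 13.87, 15.52 and 16.60 in the low libraries, and its part in other results was not tested.

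The largest falls were smaller than the largest rises, and most were lost when some 1 library was left out. Krt80, a keratin gene, had 2.78, 7.04 and 8.04 in the high libraries, against 6.90, 7.90 and 8.45 in the low libraries, and fell by 1.58 (SE 0.57, adjusted p = 0.045). Chat, the choline acetyltransferase gene of cholinergic neurons, had 1.77, 5.75 and 8.75 in the high libraries, against 4.09, 6.66 and 8.83 in the low libraries. It fell by 1.57 (SE 0.55, adjusted p = 0.041). Both overlapped between the sets, and each call was lost in 13 of the 24 fits that leave out 1 library. For Krt80 the adjusted p reached 0.101 without 4MHFW replicate 13, and for Chat 0.0895 without CreVE replicate 41.

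The other 8 largest falls ranged from -1.02 for Drd1 to -1.43 for Cd4, a T cell coreceptor gene. Cd4 had 1.88, 6.98 and 8.78 in the high libraries, against 6.02, 8.22 and 9.18 in the low libraries, and its adjusted p was 0.0689 without CreVE replicate 41. Nlrp6, an inflammasome gene (-1.33, SE 0.30), Pkp1, a desmosome gene (-1.31, SE 0.40), and Glipr1 (-1.19, SE 0.31) passed with any 1 library left out. Calls were lost for Fgf3, a fibroblast growth factor gene, in 17 of 24 such fits, for H60b, a ligand gene of the receptor NKG2D, in 12, and for Theg in 3. The sets overlapped in all 10, and 5 of the 10 were lower in the high libraries within all 5 study groups.

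The other lists moved little or in single members. In the 10 thalamic genes 3 rose (30%, against 13.1% of all genes tested), Synpo2 (0.44) and, from the bulb lists, Calb2 and Ntng1 (1.01). Of 8 hippocampal genes 2 rose (25%, against 13.1%). Among them was the desmosome gene Dsp, with 4.15, 5.33 and 8.59 in the high libraries, against 0, 3.01 and 4.03 in the low libraries (2.84, SE 0.46, adjusted p = 0.00037). The cilium gene Dnah11 was the member called among 11 ependymal and cilia genes. It rose by 3.34 (SE 0.46) and overlaps Cdca7l, which rose by 1.75. Sall1, a transcription factor gene listed for microglia that other cells express too, rose by 1.26 (SE 0.18), and the 15 other microglial genes did not pass. Cldn11 fell by 0.20 among 16 myelin genes, and Itm2a rose by 0.22 among 14 endothelial genes. Of 12 oligodendrocyte precursor genes 3 rose (25%, against 13.1%), led by Lhfpl3 (0.70), which overlaps noncoding genes. Of 8 blood genes 3 were tested and 0 passed in limma-trend, 0 passed in limma-voom, 0 had a raw p under 0.05, and 4 globin genes were listed at 0 in all 24 libraries.

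Immediate early genes, which neuronal activity induces, were called about as often as all genes. Of 20 genes 4 rose (20%, against 13.1% of all genes tested) and 2 fell (10%, against 13.6%). Atf3, a stress-induced transcription factor gene, had 5.04, 6.81 and 8.73 in the high libraries, against 3.73, 5.52 and 6.96 in the low libraries, and rose by 1.85 (SE 0.39, adjusted p = 0.0032). Fos had 9.41, 10.88 and 11.80 in the high libraries, against 8.30, 9.98 and 11.55 in the low libraries, and rose by 0.86 (SE 0.26, adjusted p = 0.020). Fos was higher in the high libraries in 4 of the 5 study groups, by 2.54 in CreTM and by -0.21 in 2MHF at the extremes. Egr3 and Homer1 fell by 0.42 and 0.40. Without the group term Fos differed by 0.70 (adjusted p = 0.160), and 1 of the 20 genes rose.

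**Figure D4:**
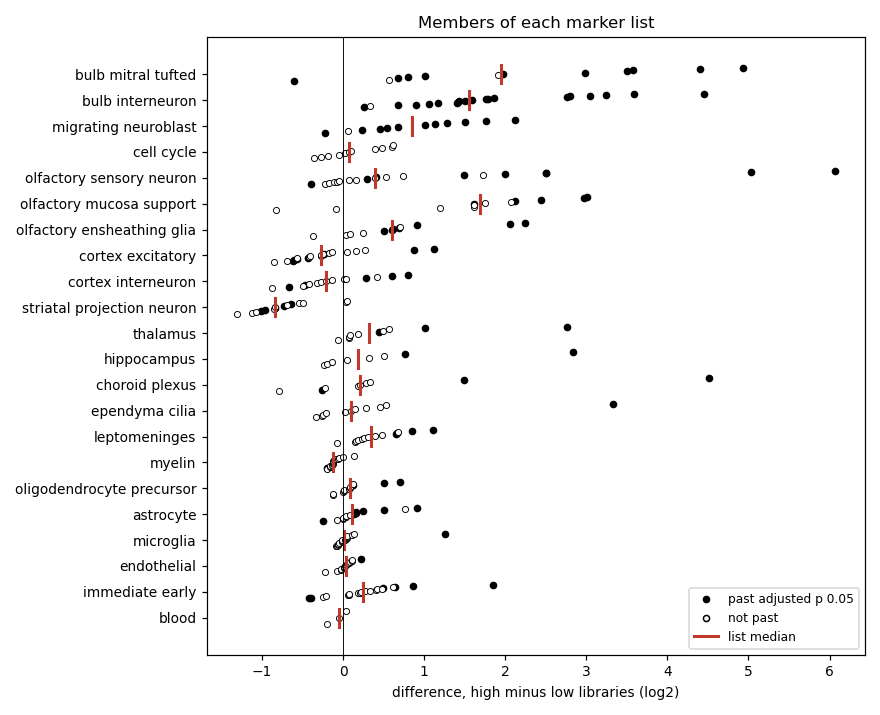
Difference between the high and low libraries (log2) of each tested member of 22 marker lists, filled where past adjusted p 0.05, with the median of each list in red. The bulb, neuroblast and ensheathing glia lists lie mostly to the right of 0, and the striatal list, with a median of -0.84, to the left.

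The 25 libraries in neither set gave a separate measure, since the comparison of sets did not use them. Their scores ran from -1.62 to 1.71, and the group means behind the scores were taken over all libraries of a group. The slope on the score rose past the threshold in 105 of 15274 genes (0.687%) and fell in 4 (0.0262%). Of the 1981 genes called higher in the high libraries and tested here, 1629 had a positive slope and 101 passed. Of the 2100 called lower, 1741 had a negative slope and 2 passed. Over all genes tested here 7066 of 15274 slopes were positive. Of the 11144 genes not called between the sets 6 passed.

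Bulb neuron genes were among those that passed in the 25 libraries. The slope rose past the threshold in 13 of 20 bulb interneuron genes and 6 of 12 mitral and tufted genes, against 0.687% of all genes tested. It passed in 3 of 12 neuroblast genes, 1 of 20 sensory neuron genes and 0 of 8 mucosa genes tested with limma. Th rose by 0.76 per unit of score (adjusted p = 2.9e-05), Doc2g by 0.87 (adjusted p = 0.00028) and Cdhr1 by 0.74 (adjusted p = 0.00022). Of the 15 largest rises between the sets 11 passed here, among them Foxd3 (0.92 per unit, adjusted p = 0.039). Stoml3 had a slope of 0.78 (adjusted p = 0.49), and Cyp2g1 one of 0.23 (adjusted p = 0.93). Drd1 had a slope of -0.05 (adjusted p = 0.96) and Fos one of -0.00035 (adjusted p = 1), and neither passed in these libraries. The genes with a falling slope were Il1r1, Gpr45, Slc35f3 and Pnma2.

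**Figure D5:**
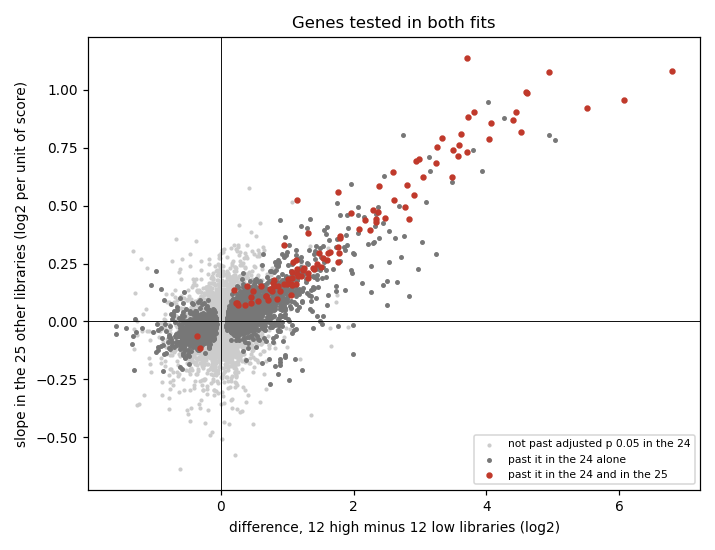
Slope on the score in the 25 libraries in neither set (log2 per unit of score, vertical axis) against the difference between the high and low libraries (log2, horizontal axis) for each gene tested in both, in red where past adjusted p 0.05 in both. Genes with large rises between the sets have positive slopes, while genes with falls have slopes close to 0.

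The score varied within every study group, and the marker levels did not pass a test between groups. Eomes averaged 6.77 ± 2.82 in CreTM, 7.46 ± 3.61 in CreVE, 7.19 ± 2.43 in 4MHFA, 8.63 ± 1.75 in 4MHFW and 6.94 ± 3.09 in 2MHF (SD, n = 10 each, 9 in 2MHF). The rule used deviations from group means, so these means were free to differ. Over 4MHFW, 4MHFA differed by -1.44 in Eomes (SE 1.23), by -1.47 in Tbx21 (SE 0.92) and by 1.57 in Omp (SE 1.12), with limma adjusted p-values of 0.740, 0.617 and 0.678. Over 2MHF, 4MHFW differed by 1.69 in Eomes (SE 1.27, adjusted p = 0.436). In 12 tests, 3 genes in 4 comparisons, the smallest unadjusted p was 0.117. With SEs of about 1 log2 unit, even differences of 1.44 to 1.69 in size did not pass. The groups may therefore differ by such amounts without the test showing it.

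How many calls the comparisons of the study gain or lose with the markers was then computed in 1 model of 49 libraries and 15366 genes. CreTM over CreVE gave 0 genes in limma-trend (0%), with 856 genes under a raw p of 0.05, and 0 with the mean of the 3 markers as a covariate. For 4MHFA over 4MHFW, 50 genes passed without the covariate (0.325%) and 84 with it, including all 50. For 4MHFW over 2MHF, 871 passed without it (5.67%) and 792 with it, of which 721 were shared, 82.8% of the first count and 91.0% of the second. For CreVE over 4MHFW, 1254 passed without it (8.16%) and 1654 with it, including all 1254. All but CreTM over CreVE use the same 4MHFW libraries. The covariate was left as measured, because the centred score cannot change a difference between groups and only narrows its SE, from a median of 0.076 to 0.070.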

How the data were processed

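Poly(A) RNA of each library was prepared with an Illumina TruSeq Stranded mRNA kit, per the labels' protocols; the aligner, counter and genome build were not stated. The deposited table gives log2 values, which the file's own values show to be log2 of reads divided by a size factor of the library, plus 1. Whole reads were recovered from their steps (99.92% to 100.00% of values up to 200 reads within 0.1 of a whole number), and 7 of 24495 genes whose values were not whole were left out. The table has 50 value columns, of which 1 matched no sample and was not used, and 27 symbols turned into dates were restored.

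Differences were tested on the deposited log2 scale with limma 3.58.1 (limma-trend, robust, two-sided, Benjamini-Hochberg over all genes tested) in R 4.3.3, with the study group as a term, for genes with a mean of at least 10 normalised reads in the libraries of the fit. A fold on this scale understates the change of low genes. Eomes, Tbx21 and Omp were left out of the fits of the sets and of the slope. Count models planned for raw reads were not used because the deposited unit is log2, and limma-voom on the recovered reads took their place. Tables and figures used Python 3.11.15, pandas 2.3.3, numpy 2.4.6 and matplotlib 3.10.9. The fits were also run on simulated reads, drawn independently for each gene with few genes changed. Here the sets were chosen by genes that vary together, so the simulation gives no error rate for these data.

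The members of the sets, the marker lists and the tests were chosen with earlier results of these data known. Genes were named by rule: the 15 largest rises and 10 largest falls (without predicted models and receptor genes), up to 4 members of each list with the smallest p, and the 5 genes closest to the score. Other list members named were chosen after their values were seen. Alternatives covered filters, pseudocounts, set size, score genes, the group term, single libraries, and libraries with mucosa genes. A gene that the rule names is not reported here.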

Additional observations from a re-analysis of the deposited data

Results flagged for a closer look

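The values looked at were 60 sets, each 1 gene or the marker score in 1 study group. Of these, 3 held a library apart from the others by the gap between it and its nearest neighbour, where chance gives about 1 in 20. Fos was at 9.55 in 2MHF replicate 36, and the other libraries of 2MHF lay between 10.59 and 11.61. Drd1 was at 7.91 in 4MHFW replicate 13, a high library, and the other libraries of 4MHFW lay between 9.88 and 11.73. Tbr1 was at 10.74 in CreTM replicate 9, also a high library, and the other libraries of CreTM lay between 11.94 and 12.70.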

How the results depend on the processing

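For high over low libraries, 2021 genes higher and 2101 lower, a slope over all 49 libraries gave 3115 higher and 3499 lower. Leaving out 1 library gave 1388 to 2400 higher and 1113 to 2602 lower, the lowest without CreVE replicate 5. The other settings stayed within 1.5 times. Outside the sets, a score from Eomes and Tbx21 gave 31 genes lower in place of 4. For 4MHFA over 4MHFW, 50 genes became 94 with the centred score, 80 with that of Eomes and Tbx21 and 84 with the uncentred mean; for 4MHFW over 2MHF, 871 became 1657 and 1548 with the centred scores. Reversed values were those of Omp in limma-voom for CreTM over CreVE (0.0584, against -0.46) and 4MHFW over 2MHF (0.0766, against -0.01), of S100a9 (main -0.05) in limma-voom (0.25), with a pseudocount of 10 (0.0451) and with 1 library left out (-0.28 to 0.0799), and of Alas2 without the group term (0.0652, against -0.19). None of these passed the threshold at first, and the cause was not tested. Of 80 named genes past the threshold 62 kept their call with any 1 library left out.

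The settings without libraries with a Cyp2g1 level over 7, with the uncentred mean, and limma-voom outside the sets and across study groups were chosen after seeing the data. Whether title numbers pair the libraries was not settled. Of 16 same-numbered pairs 4 correlated above 0.1 (range -0.27 to 0.33). Within the 24 libraries the consensus correlation of the number as a block was 0.21. Correlations alone cannot show what the numbers stand for. With the number as a replicate block, 2150 genes were higher and 2203 lower. The planned edgeR and DESeq2 fits were not run because the deposited values are log2. Mucosa and receptor genes rest on few reads in most libraries, so their differences were detectable only where large.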
